A study of Mus musculus with 2 samples.

Results

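Nuclear receptors are transcription factors that switch genes on or off when a small lipid-like ligand, such as a retinoid, a steroid or a sterol, enters the cell and binds them. The 10 genes described here were chosen by name from the 23238 gene symbols of the deposited tables: the retinoic acid receptors Rara and Rarg, the retinoid X receptors Rxra and Rxrb, the vitamin D receptor Vdr, the glucocorticoid receptor Nr3c1, the liver X receptor Nr1h2, the fatty acid sensors Pparg and Ppard, and the aryl hydrocarbon receptor Ahr, which belongs to a different protein family but likewise works as a ligand-operated switch. All 10 symbols were found, each in a single row.

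Naïve CD4+ T cells from spleens of wild-type female C57BL/6 mice aged 7 to 10 weeks were activated with anti-CD3ε (5 μg/ml) and anti-CD28 (2 μg/ml) and kept for 1 day with TGF-β1 (5 ng/ml), IL-2 (1 ng/ml) and blocking antibodies to IFN-γ and IL-4 (each at 10 μg/ml), conditions that induce regulatory T (iTreg) cells. The control culture received the vehicle, DMSO, and the treated culture received Tubastatin A at 10 μM. Tubastatin A, abbreviated TSA, inhibits the cytoplasmic deacetylase HDAC6 and is a different compound from trichostatin A. Total RNA of 1 culture of each kind was made into a QuantSeq library, whose reads come from the poly(A) end of transcripts, so that a transcript counts about once whatever its length.

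With 1 library per condition, no difference between control and TSA-treated cells below has a replicate check, and no p-value was computed. Each 95% interval compares the reads of these 2 libraries and covers counting error only. RNA came from whole cultures, so that fewer cells using a gene and less RNA per cell cannot be told apart.

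The libraries held 10846149 (control) and 10432695 (TSA) reads on genes. The cells carried T cell transcripts: 7 of 8 listed T cell markers were in the tables, with a summed level of 1495 RPM (reads per 1000000 reads of the library) in control cells and 1589 in TSA-treated cells. Of 6 regulatory T cell markers, 4 were lower beyond counting error, among them the lineage factor Foxp3 (1633 and 965 reads) and Il2ra, which encodes CD25 (8851 and 7512), Tnfrsf18 was higher (3228 and 3912), and the interval of Ikzf2 (522 and 517) included no change. Markers of B cells summed to 1.11 and 1.44 RPM, of myeloid cells to 5.90 and 5.56, of CD8 T cells to 7.38 and 8.34, of NK cells to 3.04 and 4.41 and of erythroid cells to 3.97 and 5.56. The B cell gene Pax5 and the NK gene Klrb1c were at 0 in both libraries. Dendritic cell markers summed to 1.38 and 4.79 RPM. Of these, Flt3 had 0 control and 33 TSA reads and Zbtb46 had 2 and 11, whereas Xcr1 had 9 and 6, Itgax had 4 and 0, and Siglech had none in either. The part of these small shifts in the results below was not tested. Hdac6 itself, the target of the drug, had 146 control and 166 TSA reads, a ratio of 1.13 with an interval of 0.896 to 1.42.

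Most members of this group need a partner. The retinoic acid receptors, the vitamin D receptor, the liver X receptors and the peroxisome proliferator-activated receptors (PPARs) sit on DNA as pairs with a retinoid X receptor, whereas the glucocorticoid receptor pairs with itself. The glucocorticoid receptor and Ahr both wait for ligand in the cytoplasm bound to the chaperone Hsp90, which HDAC6 is known to deacetylate. In CD4+ T cells, retinoic acid favours the induction of Foxp3 under TGF-β, and Ahr ligands can favour either regulatory or Th17 cells.

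Of the 10 genes, 9 had at least 10 reads in at least 1 library and were tested, Pparg being the exception. None of the 9 passed the 2-fold threshold that the study used, against 14.7% of the 12164 genes tested. Genes with few reads passed 2-fold more often, so the level matters to that comparison. The share past 2-fold was 23.3% at a mean normalized count between 20 and 100, where Vdr and Rarg lay. It was 4.52% at 100 to 500, the class of 5 of the receptor genes, and 0.934% at 500 or more, the class of Nr1h2 and Rxrb. A looser criterion asked whether the 95% interval of the ratio of TSA to control excluded no change. Under it 2 of the 9 genes, Vdr and Nr1h2, were higher in the TSA library and none was lower, against 56.1% of all genes tested in either direction (28.1% higher and 28.0% lower). In the level class of Vdr that share was 44.7%, in the middle class 51.1%, and in the class of Nr1h2 69.3%. The median log2 fold change of the 9 genes was -0.005, and that of all genes tested was 0.015.

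**Figure D1:**
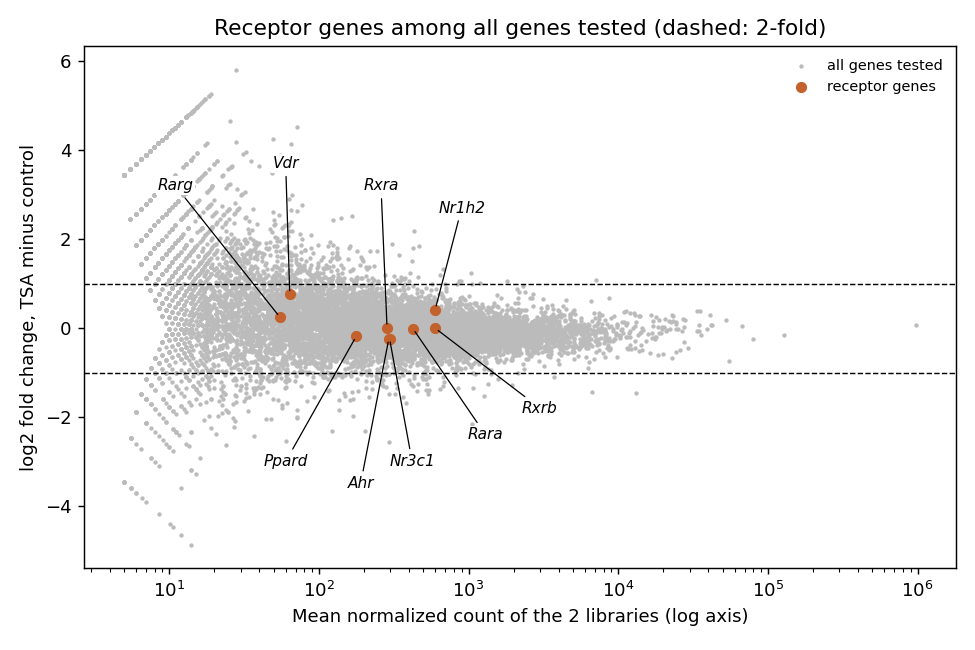
Log2 fold change (deposited TSA value minus deposited control value, vertical) against the mean normalized count of the 2 libraries (horizontal, log axis) for the 12164 genes tested, in grey, with the 9 receptor genes in orange. All 9 lie between the dashed 2-fold lines, and Vdr, at 0.76, lies nearest to one.

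In the control library the order of transcript levels, in reads, was Rxrb (599), Nr1h2 (510), Rara (425), Nr3c1 (319), Ahr (316), Rxra (283), Ppard (188), Rarg (50), Vdr (47) and Pparg (3). Each gene differed from the next beyond counting error except for Nr3c1 from Ahr, Ahr from Rxra and Rarg from Vdr. In the TSA library Nr1h2, with 689 reads, stood above Rxrb, with 603, and Vdr, with 81, stood above Rarg, with 60, although the latter pair again did not differ beyond counting error. The other places were held in the order Rara (426), Rxra (288), Nr3c1 (274), Ahr (271) and Ppard (167), and neither Rxra from Nr3c1 nor Nr3c1 from Ahr differed beyond counting error. As RPM, the control levels ran from 0.277 for Pparg to 55.2 for Rxrb, and the TSA levels from 0 for Pparg to 66.0 for Nr1h2.

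**Figure D2:**
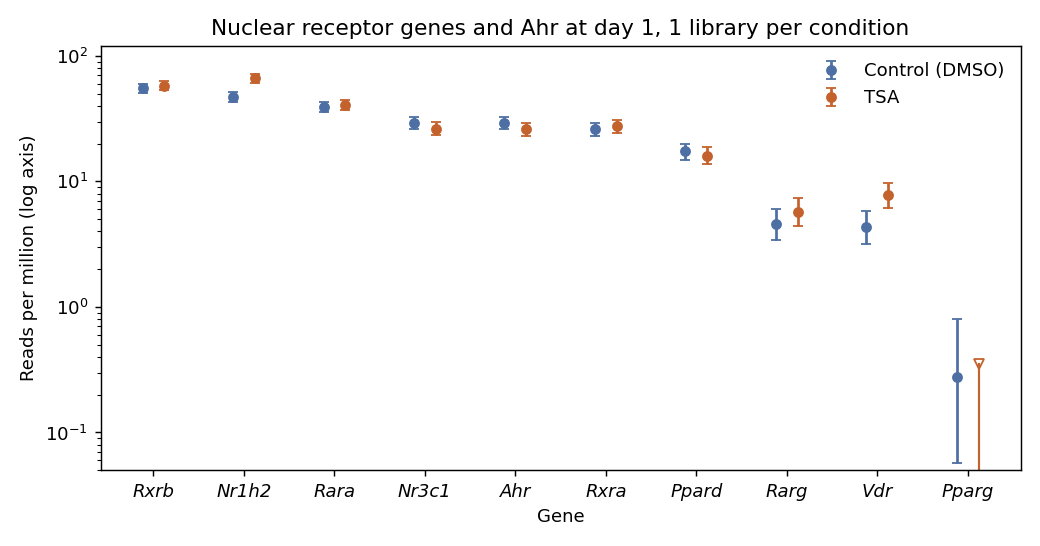
Transcript level of the 10 genes in RPM (log axis) in the control library (blue) and the TSA library (orange), with exact Poisson 95% intervals of the counting error. The open triangle marks the upper limit for Pparg, which had 0 reads in the TSA library, and only for Nr1h2 and Vdr do the 2 intervals lie apart.

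Taking the shared partners first, the retinoid X receptor genes were at the same level in the 2 libraries to within counting error. Rxra had 283 control and 288 TSA reads, a ratio of 1.01 with an interval of 0.852 to 1.19. Rxrb had 599 and 603 reads, a ratio of 0.997 with an interval of 0.889 to 1.12. Together with Rxrg, which had 0 reads in both, they gave 882 and 891 reads, and the interval of that ratio ran from 0.910 to 1.10. The mixture was alike as well: Rxrb supplied 67.9% of the control reads of the family (exact binomial interval 64.7% to 71.0%) and 67.7% of the TSA reads (64.5% to 70.7%). For Rxrg, with 0 reads, the exact upper limit of the share was 0.417% in control cells and 0.413% in TSA-treated cells, and the floor of 3 reads corresponds to 0.340% and 0.337%.

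The retinoic acid receptor genes behaved similarly. Rara, the main receptor of this kind in CD4+ T cells, had 425 control and 426 TSA reads, a ratio of 0.993 with an interval of 0.866 to 1.14. Rarg had 50 and 60 reads, a ratio of 1.19, but its interval of 0.803 to 1.77 is wide. Rarb, itself a classical target of retinoic acid, had 7 and 12 reads. Rara accounted for 88.2% of the reads of the family of control cells and 85.5% in TSA-treated cells, with overlapping intervals (84.95% to 90.9% and 82.1% to 88.5%). The small log2 differences of Rara and Rxrb were below 0 as deposited and above 0 once total reads or the upper quartile set the scale, so neither gene has a direction.

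**Figure D3:**
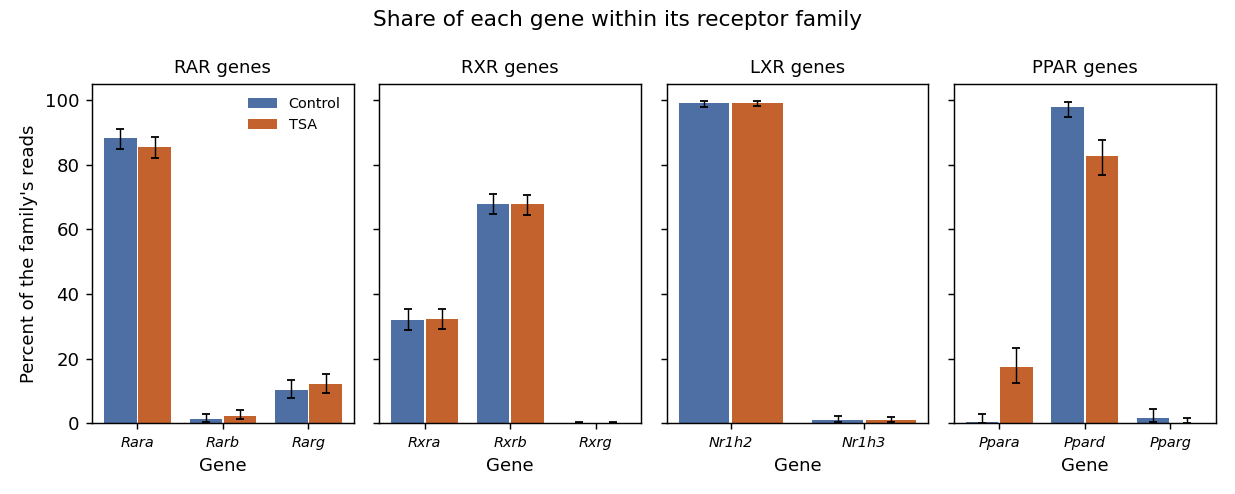
Percent of the reads of each receptor family (RAR, RXR, LXR and PPAR) that came from each of its genes, in the control library (blue) and the TSA library (orange), with exact binomial 95% intervals. The intervals overlap in the first 3 families, whereas Ppara went from 0.521% to 17.3% of the PPAR reads.

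Unlike these receptors, several genes that handle retinoids differed by more than 2-fold. Crabp2, a cytosolic carrier that brings retinoic acid to its receptors, rose from 213 to 457 reads, a ratio of 2.12 (interval 1.80 to 2.51). Stra6, the membrane channel through which cells take up retinol, fell from 41 to 12 reads, a ratio of 0.290 (0.139 to 0.562). Dhrs3, which reduces retinal back to retinol, fell from 23 to 7 reads, a ratio of 0.301 (0.109 to 0.725).

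Of the 11 listed genes of retinoid metabolism and binding, 5 were tested, of which 1 passed 2-fold upwards and 2 downwards. Dhrs3 was tested only through its control reads, which fixed its direction. The median log2 fold change of the 5 was -0.35, but it was -0.11 with at least 10 reads in both libraries and 0.14 at a mean normalized count of at least 50, so the list has no direction. Across all genes tested, 11.5% passed 2-fold upwards and 3.15% downwards. The retinol and retinal dehydrogenase genes Rdh11 and Rdh10 had 72 and 80 reads (ratio 1.10, 0.790 to 1.53) and 61 and 48 reads (0.779, 0.522 to 1.16). The enzymes that make retinoic acid from retinal, Aldh1a1 and Aldh1a3, had 0 reads in both libraries, and Aldh1a2 had 0 and 3.

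Of 12 listed targets of retinoic acid, 7 were tested, with 1 past 2-fold in each direction, again Crabp2 and Dhrs3, which stand in both lists, and a median log2 fold change of 0.24 (0.12 without a filter and 0.39 at a mean normalized count of at least 50). Among the more abundant ones, Rai1 had 374 and 495 reads, a ratio of 1.31 (1.14 to 1.503), and Itga4, an integrin subunit, had 194 and 231, a ratio of 1.18 (0.970 to 1.43), whose interval excluded no change with total-read scaling. By the interval 2 of the 7 were higher and 1 lower (3 and 1 with total-read scaling), beside 28.1% and 28.0% of all genes tested. Cyp26a1, the retinoic acid hydroxylase that is the most responsive target in many cell types, was at 0 in both libraries.

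Vdr, the receptor for the active form of vitamin D, had the largest ratio of the 9 genes. It had 47 control and 81 TSA reads, 4.33 and 7.76 RPM. The ratio was 1.71 with an interval of 1.18 to 2.50, and the deposited log2 values, 5.59 and 6.35, differed by 0.76. Relative to Rxrb, its possible partner, Vdr went from 0.0785 to 0.134 reads per Rxrb read, a change of 1.71 times (interval 1.16 to 2.55) that does not depend on the scaling between libraries. Past a 1.5-fold threshold, Vdr was the single member called, against 27.1% of all genes tested.

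The genes around vitamin D gave little to set beside it. Cyp24a1, the enzyme that degrades active vitamin D and is the standard target of Vdr, had 0 reads in both libraries, as did Gc, which encodes the vitamin D carrier of blood. Cyp27b1, which makes the active hormone, had 0 and 2 reads. Of the 5 listed genes 2 were tested. Cyp2r1, a hydroxylase of vitamin D, had 11 and 4 reads and passed 2-fold downwards on the log2 scale. It was tested only through its control reads, which fixed that direction, and the interval of its ratio of 0.360 ran from 0.0836 to 1.22 and included no change. Pdia3, a protein disulfide isomerase, had 2976 and 2559 reads, a ratio of 0.851 (0.807 to 0.898).

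Nr1h2 encodes liver X receptor β, a sensor of oxidised cholesterol that restrains the proliferation of T cells. It had 510 control and 689 TSA reads, 47.0 and 66.0 RPM. The ratio was 1.34 with an interval of 1.19 to 1.503, and the deposited values of 9.004 and 9.423 differed by 0.42 on the log2 scale. Per Rxrb read, Nr1h2 went from 0.851 to 1.14 reads, a change of 1.34 times (interval 1.14 to 1.58). Nr1h3, which encodes the α form, had 5 and 7 reads, so Nr1h2 supplied 99.03% of the liver X receptor reads in control cells and 98.99% in TSA-treated cells.

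Targets of the liver X receptors were mixed. Of 12 listed, 8 were tested, 1 passed 2-fold upwards and none downwards, and the median log2 fold change was 0.31. Scd1, a fatty acid desaturase, rose from 19 to 44 reads, a ratio of 2.29 (1.31 to 4.16). Srebf1, the regulator of fatty acid synthesis that liver X receptors are known to induce, had 480 and 640 reads, a ratio of 1.32 (1.17 to 1.49). The other tested targets, named so that the list is complete, were Smpdl3a, with 52 and 101 reads (ratio 1.92, 1.36 to 2.74), Apoe, with 75 and 89 (1.17, 0.855 to 1.62), Mylip, with 35 and 38 (1.07, 0.661 to 1.75), and Abcg1, described next.

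On the other side of 1, Lpcat3, which remodels phospholipids, had 2839 and 2229 reads, a ratio of 0.777 (0.735 to 0.822), and Scd2 had 629 and 466, a ratio of 0.734 (0.649 to 0.828). The cholesterol exporter genes, often used to read liver X receptor activity, were scarce: Abca1 had 5 and 6 reads, and Abcg1 had 52 and 69, with an interval of 0.904 to 1.92. In all, 3 of the 8 tested targets were higher beyond counting error and 2 were lower, beside 28.1% and 28.0% of all genes tested.

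The starts of Vdr and Nr1h2 are shown because these are the 2 receptor genes that were higher in the TSA library beyond counting error, and that of Cyp1a1, a target of Ahr described further on, because it differed most among the tested targets. The sequences are from RefSeq on GRCm38.p6 and run 5′ to 3′ on the strand of the gene, from 250 bases before the annotated start to 50 after it. Capitals mark 4 motifs on either strand: AGGTCA, the half-site of many nuclear receptors, GCGTG, the core bound by Ahr with Arnt, GGGCGG, the GC box, and CCGGAA, a core of ETS factor sites, the last 2 motifs being chosen after the sequences were seen. Overlapping matches on the 2 strands (TTCCGGAA) were counted separately.
Vdr (chr15:97908247-97908546, minus strand): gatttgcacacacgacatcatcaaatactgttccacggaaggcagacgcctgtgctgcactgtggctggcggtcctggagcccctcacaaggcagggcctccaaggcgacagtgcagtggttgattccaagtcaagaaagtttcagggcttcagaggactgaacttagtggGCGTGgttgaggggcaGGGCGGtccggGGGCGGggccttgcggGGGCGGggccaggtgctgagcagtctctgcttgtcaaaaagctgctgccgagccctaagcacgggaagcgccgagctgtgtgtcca
Nr1h2 (chr7:44553916-44554215, minus strand): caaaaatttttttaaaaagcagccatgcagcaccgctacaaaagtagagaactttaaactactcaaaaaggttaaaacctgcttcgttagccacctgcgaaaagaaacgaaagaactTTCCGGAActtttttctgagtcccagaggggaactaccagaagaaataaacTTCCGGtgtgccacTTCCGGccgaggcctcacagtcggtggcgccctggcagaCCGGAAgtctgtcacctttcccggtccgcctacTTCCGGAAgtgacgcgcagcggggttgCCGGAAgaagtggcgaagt
Cyp1a1 (chr9:57697363-57697662, plus strand): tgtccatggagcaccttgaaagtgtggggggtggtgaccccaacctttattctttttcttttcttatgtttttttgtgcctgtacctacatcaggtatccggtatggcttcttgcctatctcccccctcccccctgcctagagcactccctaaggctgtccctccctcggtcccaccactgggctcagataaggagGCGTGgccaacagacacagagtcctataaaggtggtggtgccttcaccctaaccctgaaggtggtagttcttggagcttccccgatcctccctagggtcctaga

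The Vdr window held 3 GC boxes and 1 GCGTG, the Nr1h2 window 8 CCGGAA cores and none of the other 3 motifs, and the Cyp1a1 window 1 GCGTG. No window of the 3 held AGGTCA. Among all 32851 promoter windows of this length, 16.3% held AGGTCA, 32.4% GCGTG, 35.7% GGGCGG and 14.9% CCGGAA. Only 2 windows held as many CCGGAA cores as that of Nr1h2, which is 1 of them, and no other promoter window of the receptor genes held more than 1. Windows were found for 8 of the 10 genes, Ahr and Nr3c1 being the others, and these matches describe the letters of the windows and say nothing of which factors were bound.

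The PPAR genes sense fatty acids. Ppard, the broadly expressed form, had 188 control and 167 TSA reads, a ratio of 0.880 whose interval, 0.710 to 1.09, included no change. Pparg had 3 reads and 0, at or under the 3 reads that the depth can show, so no fold change is given. Its 95% upper limits were 0.808 and 0.354 RPM. Another annotated gene, Gm44079, overlaps the last exon of Pparg, and whether the counting used strand is not given in the sources used here.

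The remaining gene of the family, Ppara, was not among the 10, but it altered the mixture: it had 1 control and 35 TSA reads, a ratio of 34.7 that rests on 1 control read, with an interval of 5.83 to 1407. It was tested only through its TSA reads, which fixed its direction. The share of Ppard in the PPAR reads was 97.9% in the control library (interval 94.75% to 99.4%) and 82.7% in the TSA library (76.7% to 87.6%). The summed reads of the family, 192 and 202, had a ratio of 1.04 (0.851 to 1.28).

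Many known PPAR targets encode the machinery of fatty acid oxidation. Of 19 listed, 14 were tested, with a median log2 fold change of 0.30, which was 0.035 without a filter and 0.15 at a mean normalized count of at least 50. Past 2-fold there was 1, Plin2, a coat protein of lipid droplets, which rose from 18 to 40 reads, a ratio of 2.20 (1.23 to 4.08). With total-read scaling 2 targets passed.

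By the interval, 7 targets were higher and 3 lower, beside 28.1% and 28.0% of all genes tested. Angptl4, a secreted inhibitor of lipoprotein lipase, had 75 and 131 reads, a ratio of 1.73 (1.29 to 2.33), Cpt1a, which admits fatty acids to mitochondria, had 175 and 263, a ratio of 1.49 (1.22 to 1.81), and Acaa2 had 369 and 552, a ratio of 1.48 (1.296 to 1.70). Their values were known when those 3 genes were picked. The most abundant of the list stood on the other side of 1: Ucp2 had 1448 and 1215 reads, a ratio of 0.831 (0.769 to 0.897), Fabp5 had 1292 and 1211, a ratio of 0.928 (0.857 to 1.005), and Hadha had 1144 and 1031, a ratio of 0.892 (0.820 to 0.972). With total-read and with upper-quartile scaling the interval of Hadha included no change.

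Nr3c1, the receptor through which glucocorticoids quiet T cells, had 319 control and 274 TSA reads, 29.4 and 26.3 RPM. The ratio was 0.851, and its interval of 0.721 to 1.003 only just included no change. Most of the chaperones that hold the receptor were lower by a similar amount. Hsp90ab1 and Hsp90aa1, the 2 cytosolic Hsp90 genes, had 86466 and 73786 reads (ratio 0.845, 0.837 to 0.853) and 19454 and 13271 reads (ratio 0.676, 0.661 to 0.691). Hspa8, a constitutive Hsp70, had 13510 and 10572 reads, a ratio of 0.775 (0.755 to 0.795).

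Of the 14 listed chaperones and cochaperones, Hdac6 included, all were tested and none passed 2-fold, while 10 were lower beyond counting error and 1, Cdc37, was higher (9 and 2 with total-read scaling, 10 and 2 with upper-quartile scaling). The interval excluded no change for 56.1% of all genes tested and for 69.3% of those at a mean normalized count of 500 or more, the class of all the chaperone genes but Hdac6. Their median log2 fold change was -0.23, or -0.16 with total-read scaling. Among them, Fkbp4, the cochaperone that favours an active receptor, had a ratio of 0.871 (0.835 to 0.909), and Fkbp5, which opposes it and is also a target of the receptor, one of 1.12 (0.995 to 1.25), both named after their values were seen. With total-read and with upper-quartile scaling Fkbp5 was higher beyond counting error. Since Hsp90aa1 was lower by more than Nr3c1, the reads of Nr3c1 per Hsp90aa1 read went from 0.0164 to 0.0207, a change of 1.26 times (1.07 to 1.49). This holds for Hsp90aa1 only: Hsp90ab1, the more abundant Hsp90 gene, had a ratio of 0.845, close to that of Nr3c1.

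Glucocorticoid targets did not follow 1 direction. Of 15 listed, 14 were tested, with 1 past 2-fold upwards, none downwards and a median log2 fold change of 0.16. Mt1, a metal-binding metallothionein that zinc induces as well as glucocorticoids, rose from 130 to 487 reads, a ratio of 3.71 (3.05 to 4.54), and its neighbour Mt2 had 65 and 115, a ratio of 1.75 (1.28 to 2.41). Tsc22d3, which encodes GILZ and is the target most used to read the receptor in lymphocytes, had 78 and 85 reads, a ratio of 1.08 with an interval of 0.784 to 1.49. The list's most abundant genes stayed close to 1: Nfkbia, the inhibitor of NF-κB, had a ratio of 0.951 (0.928 to 0.976), Klf13 one of 0.9499 (0.889 to 1.01) and Ddit4 one of 1.12 (1.03 to 1.23). Beyond counting error, 4 of the 14 were higher and 1, Nfkbia, was lower, beside 28.1% and 28.0% of all genes tested, and these numbers were 7 and 0 with total-read scaling and 5 and 0 with upper-quartile scaling. Mt2 and Tsc22d3 were named after their values were seen.

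Ahr senses planar aromatic compounds, among them breakdown products of tryptophan. It had 316 control and 271 TSA reads, 29.1 and 26.0 RPM. The ratio was 0.849 with an interval of 0.719 to 1.002, which, as for Nr3c1, only just included no change. For both genes this holds for the authors' scaling. With total-read scaling their log2 fold changes were nearer to no change, at -0.165 for Ahr and -0.163 for Nr3c1, against -0.235 and -0.233 as deposited. Arnt, the partner with which Ahr binds DNA, had 131 and 212 reads, a ratio of 1.60 (1.28 to 2.01). The reads of Ahr per Arnt read thus went from 2.41 to 1.28, a change of 0.530 times (0.400 to 0.702) that is free of the scaling between libraries. Of the 4 listed partners, Arnt2 had 0 reads in both and the repressor Ahrr had 8 and 5, which left 2 tested, neither past 2-fold.

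The largest difference among the tested targets of the receptors was at an Ahr target. Cyp1a1, the cytochrome P450 that Ahr induces most strongly, fell from 114 to 28 reads, a ratio of 0.243 with an interval of 0.155 to 0.370. The related Cyp1b1 had 7 control and 0 TSA reads, which is under the minimum for testing. With the TSA library set at 3 reads, its ratio is 0.424 at most, although the upper end of its interval was 0.687. Tiparp, an Ahr-induced enzyme that feeds back on the receptor, had 470 and 403 reads, a ratio of 0.849 (0.741 to 0.972), though its interval included no change with total-read and with upper-quartile scaling. Nqo1 had 21 and 26 reads, a ratio of 1.23 (0.663 to 2.29). Of 8 listed targets 3 were tested, and Cyp1a1 was the single one past 2-fold, against 3.15% of all genes tested downwards. By the interval 2 were lower and none higher (1 and none with total-read or upper-quartile scaling), beside 28.0% and 28.1% of all genes tested.

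**Figure D4:**
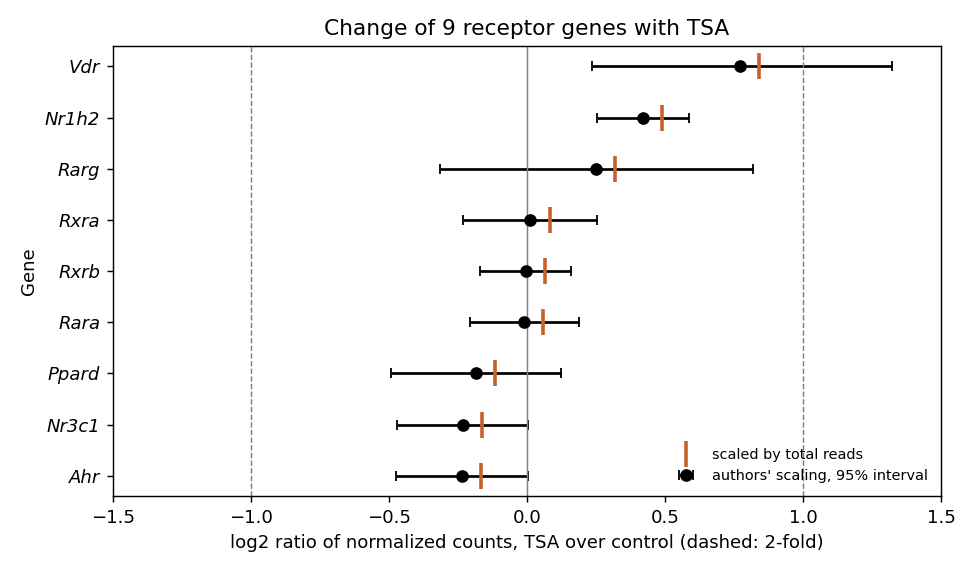
Log2 ratio of normalized counts, TSA over control, for the 9 receptor genes tested (black, with exact 95% intervals of the counting error), and the same ratio when the libraries are scaled by their total reads (orange bars). Vdr and Nr1h2 lie to the right of 0 with their whole interval, and no ratio lies past the dashed 2-fold lines.

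In the rest of the nuclear receptor family, 40 genes were listed, of which 12 had no read in either library and 21 were tested. Past 2-fold there were 9, all upwards, but 6 of these had fewer than 10 control reads and were tested only because the TSA library held more, which fixed their direction. Among the 14 genes with at least 10 reads in both libraries, 3 passed 2-fold, again upwards, and the median log2 fold change was 0.24. Over all genes with that many reads in both, 4.80% passed 2-fold upwards. Among the 3 were Thra, a thyroid hormone receptor, at 59 and 137 reads (ratio 2.30, 1.68 to 3.18), and Nr2f6, an orphan receptor that restrains T cell cytokine genes, at 63 and 138 (2.17, 1.60 to 2.97). The 6 scarce genes had at most 7 control reads. Thrb had 7 and 32 reads, Nr2f2 had 2 and 30, Rorb had 2 and 20, and Ppara is given above. Esr1, the oestrogen receptor, had 0 and 18 reads, at least 5.94-fold higher with the control set at 3 reads, and Nr5a2 had 0 and 12, at least 3.96-fold higher, although the lower ends of their intervals, 4.35 and 2.75, lay below these values.

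The most abundant of the family, the activation-induced orphan receptor genes Nr4a3 and Nr4a1 and the metabolic regulator Esrra, had ratios of 1.27 (1.22 to 1.32), 1.04 (0.985 to 1.11) and 0.786 (0.735 to 0.841). Nr4a1 was higher beyond counting error with total-read and with upper-quartile scaling only.

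With 2 libraries a gene has 1 difference, so likeness to Vdr and Nr1h2 was taken as the distance between log2 fold changes. Among the 14 other nuclear receptors with at least 10 reads in both libraries, those near to Vdr (0.76) included Nr2f6 (1.11) and the circadian repressor gene Nr1d2 (0.36), at distances of 0.35 and 0.40. The nearest to Nr1h2 (0.42) were Nr1d2 (0.36), Nr4a3 (0.34) and Nr6a1 (0.33), all within 0.10.

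**Figure D5:**
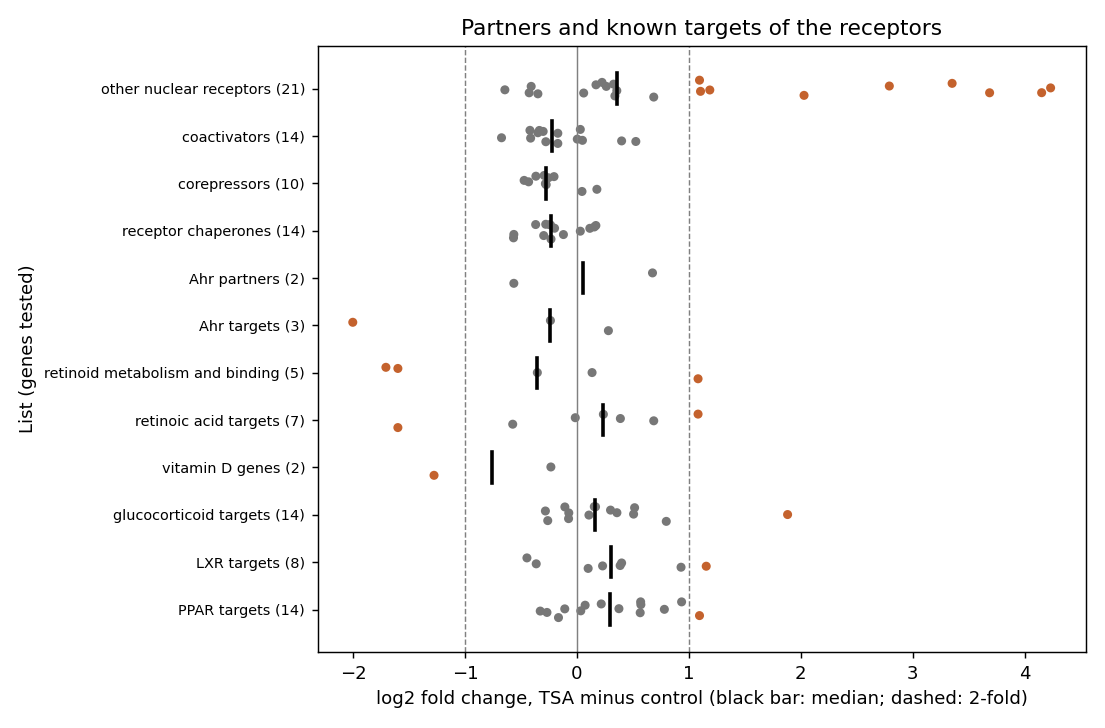
Log2 fold change (deposited TSA value minus deposited control value) of each tested gene of the lists of partners, cofactors and known targets, with the number tested in parentheses, the median as a black bar and genes past 2-fold in orange. Of the 9 orange points of the other nuclear receptors, 6 are genes tested only through their TSA reads, and the point farthest to the left is Cyp1a1.

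All 10 genes are annotated as protein-coding in GENCODE M21 on GRCm38, the assembly that the submitters name as mm10. Rxra lies on chromosome 2 from 27676440 to 27762957, Pparg on chromosome 6 from 115360951 to 115490399, Nr1h2 on chromosome 7 from 44549616 to 44553951 and Rara on chromosome 11 from 98927818 to 98974942. Ahr lies on chromosome 12 from 35497974 to 35535038, and Nr3c1 on chromosome 18 from 39410545 to 39519421. Vdr and Rarg are on chromosome 15, from 97854425 to 97910630 and from 102234938 to 102257517, and Ppard and Rxrb are on chromosome 17, from 28232700 to 28301474 and from 34031812 to 34038399. Coding transcripts of Nr1h2 have 10 annotated 3′ ends, those of Nr3c1 have 9, those of Vdr have 5 and Ahr has 1, and the deposited values do not separate reads from different ends of a gene. Pparg was the single member whose last exon another annotated gene overlaps.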

How the data were processed

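RNA from 1 control and 1 TSA culture was sequenced by the authors as single-end 75-nt QuantSeq reads. The submitters' processing notes name Bowtie2, bedtools and mm10, and the paper names ExDEGA, while the counting step, the annotation and the scaling between libraries are not given in the sources used here. The deposited values are log2 of a normalized count plus 1. Taken out of the log2 scale they fell on steps of 1.005 (control) and 0.995 (TSA) per read, and 100% of values of 1 to 300 reads lay within 0.15 of a whole number, so reads were recovered by rounding. Another 1940 control rows held values slightly above 0 that amount to no read and were set to 0 reads.

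The 10 genes, the lists around them and the tests were chosen with earlier results of these data known. Each fold change subtracts the control value from the TSA value as the authors deposited them, which keeps the authors' scaling and the 1 count added and understates changes of genes with few reads. Ratios use the recovered reads and the authors' scaling, with exact Clopper-Pearson 95% intervals. Genes reaching 10 reads in either library were tested on the whole table and called past 2-fold. Levels carry exact Poisson intervals, family shares exact binomial ones and ratios of gene pairs exact conditional ones. PCR copies could not be told apart from molecules. The floor was 3 reads, 0.277 (control) and 0.288 (TSA) RPM. Beside all the receptor genes, the text names in each list the genes past 2-fold and the 3 with most reads, the nearest receptors by log2 fold change, Foxp3, Il2ra and Hdac6, and marks or lists in full any others; genes at or near 0 are named for their role. Some genes that this rule would name are counted in their lists but not reported here. Alternatives were 4 scalings, 2 pseudocounts, 3 filters and a 1.5-fold threshold. The steps were tested on simulated data. Scripts used matplotlib 3.10.9, pandas 2.3.3, scipy 1.17.1, numpy 2.4.6 and Python 3.11.15.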

Additional observations from a re-analysis of the deposited data

How the results depend on the processing

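No paired analysis was possible because each condition had a single library, and for the same reason none could be omitted in turn. The number of receptor genes past 2-fold was 0 as reported, and it was 1 without a filter (Pparg, with 3 and 0 reads, let in by that filter) and 1 with a 1.5-fold threshold (Vdr). Under the other alternatives, 4 scalings, 2 pseudocounts and 2 filters, it stayed at 0, and under the 4 scalings the genes whose interval excluded no change were Vdr and Nr1h2. All 54 recomputed fold changes of the 9 tested receptor genes lay within the counting error of the reported ones, and 4 of them, of Rara and Rxrb, had the other sign. Of 108 recomputed list medians 16 moved by 0.1 or more, and 2 changed sign: the Ahr partners without a filter (-0.28) and the retinoid genes at a mean normalized count of at least 50 (0.14). Over all genes, 4017 passed 2-fold without a filter, 747 with at least 10 reads in both libraries and 419 at a mean normalized count of at least 50, where 66.3% of the calls were upwards against 78.5% as reported, and 3293 passed 1.5-fold.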

Other observations

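Cofactors carry the signal from a ligand-bound or empty receptor to chromatin. Of 15 coactivator genes, 14 were tested and none passed 2-fold in either direction. Beyond counting error 8 were lower and 2 higher (7 and 2 with total-read or upper-quartile scaling), beside 28.0% and 28.1% of all genes tested. In either direction the share was 51.1% at a mean normalized count of 100 to 500 and 69.3% at 500 or more, the classes in which the 14 genes lay. Their median log2 fold change was -0.22. Med1, the Mediator subunit that nuclear receptors contact, had 1845 and 1656 reads (ratio 0.889, interval 0.831 to 0.9502), the acetyltransferase gene Crebbp had 1741 and 1394 (0.793, 0.738 to 0.851), and the arginine methyltransferase gene Carm1 had 973 and 772 (0.786, 0.714 to 0.864). Within the PGC-1 family of metabolic coactivators the directions were split, and these genes were named after their values were seen: Ppargc1b had 265 and 386 reads (1.44, 1.23 to 1.69), Pprc1 had 528 and 334 (0.626, 0.545 to 0.720), and Ppargc1a had 4 and 6.

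All 10 corepressor genes were tested, none passed 2-fold, and 5 were lower beyond counting error and 1 higher (4 and 1 with total-read or upper-quartile scaling), against 28.0% and 28.1% of all genes tested, with a median log2 fold change of -0.28. Ncor1, the scaffold that ties empty receptors to the deacetylase Hdac3, had 4826 and 3980 reads (0.817, 0.783 to 0.852), Gps2, another subunit of that complex, had 971 and 707 (0.721, 0.654 to 0.795), and Tbl1xr1 had 776 and 809 (1.03, 0.934 to 1.14).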
